A study of Homo sapiens with 2 samples.

Results

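RNA bound to chromatin was measured over 34 very long genes of SH-SY5Y cells, which either encode neural adhesion molecules, receptors and scaffolds or lie across common fragile sites of the genome. They were taken from a list of gene symbols that were looked up in GENCODE version 44, and all 34 were among the 60554 genes counted, of which 19586 were protein-coding. The rule names symbols and uses no measured value, but the list was chosen with earlier results of these data known. Gene span and exon length served to describe the genes. SH-SY5Y is an established human neuroblastoma line of adrenergic character, and the cells carried no genetic modification. Cells were fractionated, the RNA that stayed with chromatin was made into strand-specific libraries with molecular identifiers, and 2 replicates of this single condition were sequenced from both ends. The sources used here do not say whether the replicates were separate cultures, so an SD below is the spread between these 2 libraries and may be technical. There is no second condition to test against, and every comparison between genes is a description of levels.

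Chromatin RNA is rich in transcripts that are still being made or have just been made, so introns that are short-lived in total RNA can be seen in it. Very long genes carry introns of many kilobases, and a polymerase that starts at their promoter needs hours to reach their end. Many of them encode synaptic adhesion molecules and are chiefly used in neurons, and several coincide with common fragile sites, regions that break when replication is slowed.

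On the strand of the gene, replicate 1 held 4155210 counts over all genes and replicate 2 held 3425309. The cell type was checked with marker genes. All 6 adrenergic neuroblast markers and all 4 neuron markers reached a mean count of at least 10, led by HAND2 (831 counts per 1000000 counts in genes, CPM) and MAP2 (499 CPM). Of the Schwann cell or melanocyte markers 1 of 5 did (MITF, 16.0 CPM) while SOX10 was at 0, and of the mesenchymal markers 2 of 4 did, led by FN1 (374 CPM). No endothelial, leukocyte, astrocyte or oligodendrocyte marker did, and the highest of each were VWF (0.241 CPM), LYZ (0.266 CPM), GFAP, AQP4 and SLC1A3 (all 0) and MBP (0.412 CPM).

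Chromatin RNA of the very long genes ran from none to the upper range of coding genes. Of the 34 genes 23 had a mean count of 10 or more (67.6%), as did 59.4% of all protein-coding genes and 66.2% of the 284 other protein-coding genes with a span of at least 500 kb. For a mean count of 100 or more it was 15 of the 34 (44.1%), beside 34.7% of protein-coding genes and 49.7% of the other long genes. The median was 20.03 CPM, against 8.61 CPM for protein-coding genes and 24.5 CPM for the other long genes. Because the very long genes also have long exon sequence, levels were set beside each other as sense counts per kb of exon, the mean of both libraries over the union of annotated exons. On that scale their median was 5.58 counts per kb, under the 7.28 of protein-coding genes and the 6.89 of other long genes, and 15 of the 34 lay above the median of protein-coding genes. All 34 together took 0.183% of the counts in replicate 1 and 0.177% in replicate 2, and the 5 genes with the most counts held 55.6% of these. Less RNA of a gene in every cell and RNA in fewer of the cells cannot be told apart in these pooled cells. The very long genes fell into a small set with much RNA, a broad middle and 11 genes under a mean count of 10.

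**Figure D1:**
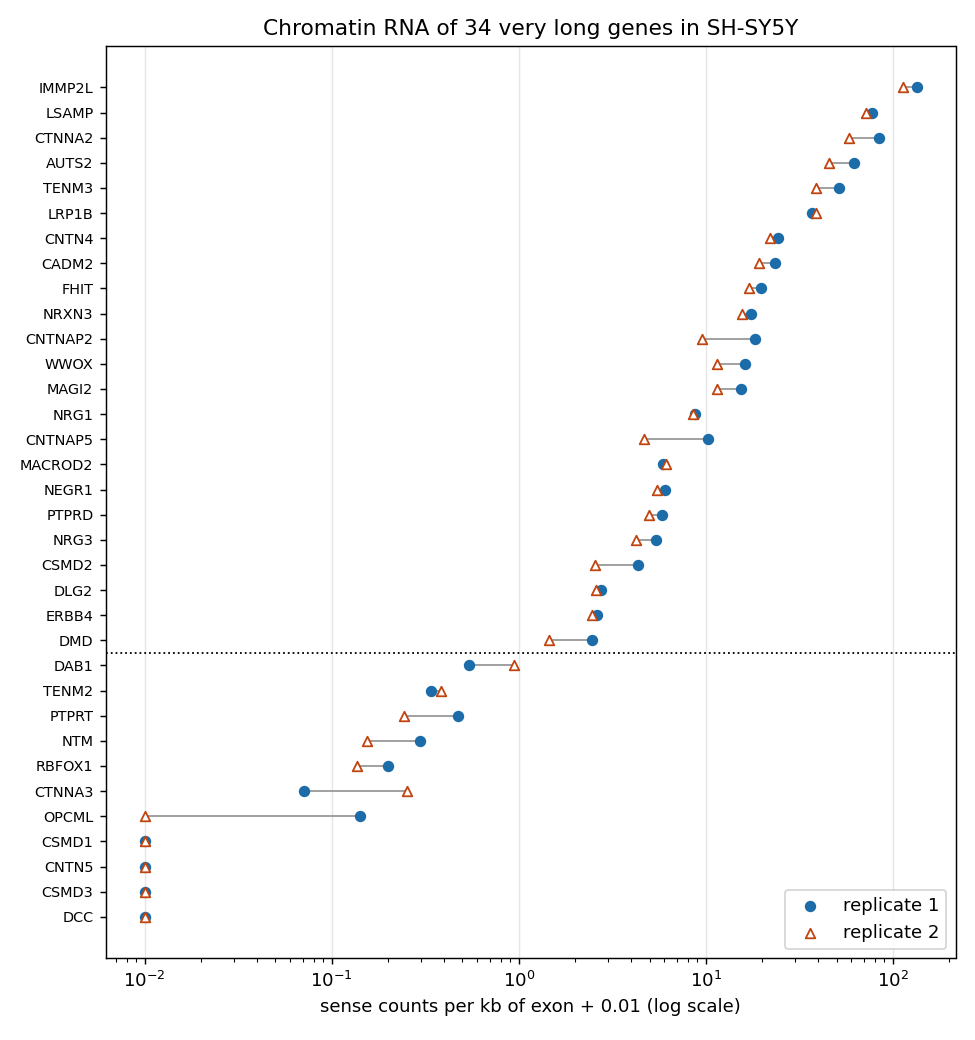
Sense counts per kb of exon of the 34 genes in replicate 1 (circles) and replicate 2 (triangles), with 0.01 added and on a log scale, ordered by the mean of the 2 libraries. Genes above the dotted line have a mean count of at least 10, from IMMP2L at 123 down to DMD at 1.94 counts per kb, and the 4 lowest genes have no count; the counts are not scaled for depth, and replicate 2 holds 45.2% of the counts of both libraries.

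The 4 genes that lie across common fragile sites and encode enzymes or small proteins all had RNA. IMMP2L, a subunit of the inner mitochondrial membrane peptidase (chr7:110662644-111562517, minus strand), had 533 counts in replicate 1 and 447 in replicate 2, or 128 and 131 CPM. At 123 ± 15.3 counts per kb (SD, n = 2) it was the highest of the 34 genes, lay at percentile 96.3 of protein-coding genes and ranked 19 of the 318 protein-coding genes of at least 500 kb. Its exons cover only 3.97 kb of 0.900 Mb. FHIT, a diadenosine triphosphate hydrolase at the fragile site FRA3B, had 148 and 127 counts (18.4 ± 1.99 counts per kb). WWOX, a WW domain oxidoreductase at the fragile site FRA16D, had 276 and 197 counts (13.8 ± 3.26 counts per kb). MACROD2, an ADP-ribosylhydrolase, had 67 and 70 counts (6.0 ± 0.186 counts per kb). The values of these 4 genes did not overlap between genes, and those of WWOX and FHIT were closest to each other. In a list of 8 genes related by family or function to the enzymes and to the nuclear regulators below, 7 were detected, meaning here and below a mean count of at least 10. IMMP1L, the partner subunit of IMMP2L, had 81.8 ± 6.16 counts per kb, MACROD1 had 61.6 ± 22.9, the splicing factor RBFOX2 had 31.5 ± 9.74 and the hydrolase NUDT2 had 28.4 ± 0.659. RBFOX3 had no count. Of 12 other genes known for fragile sites 11 were detected, led by the exocyst subunit EXOC4 (403 ± 38.4 counts per kb), THSD7A (348.5 ± 52.1), DPYD (66.7 ± 17.4), which breaks down pyrimidines, and NBEA (40.1 ± 4.13). Over all 102 genes of these lists and of those below 80 were detected (78.4%), beside 59.4% of all protein-coding genes. The lists were chosen with earlier results of these data known, so these shares are descriptions only.

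The 2 nuclear regulators stood far apart. AUTS2, which acts with a Polycomb complex in neurons (chr7:69598296-70793506, plus strand), had the most counts of the 34 genes, 1540 and 1133, or 371 and 331 CPM. Over its 24.9 kb of annotated exon it had 53.7 ± 11.6 counts per kb. RBFOX1, a neuronal splicing factor and the longest protein-coding gene of the annotation at 2.47 Mb, had 3 and 2 counts (0.159 ± 0.0449 counts per kb). Its shorter paralog RBFOX2 is given above, so that of this splicing factor family 1 of 3 genes was detected.

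Of the 4 IgLON genes, which encode small lipid-anchored adhesion molecules of the neuron surface, LSAMP and NEGR1 were detected. LSAMP (chr3:115802374-117139389, minus strand) had 791 and 734 counts, or 190 and 214 CPM, and 74.2 ± 3.93 counts per kb. NEGR1 had 80 and 72 counts (5.75 ± 0.428 counts per kb). NTM had 2 and 1 counts and OPCML had 1 and 0. LSAMP was thus more than 10 times higher than NEGR1 on the scale of counts per kb. NTM and OPCML, which lie side by side on chromosome 11, each had no more than 3 counts over both libraries, used here as a floor. CADM2, an adhesion molecule of synapses and myelinated axons, had 234 and 193 counts (21.4 ± 2.90 counts per kb) and nearly equal CPM in both libraries (56.3 and 56.4).

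Contactins and their Caspr partners link axons and glia, and neurexins are presynaptic receptors. CNTN4 had 221 and 200 counts (23.1 ± 1.63 counts per kb), NRXN3 269 and 241 (16.4 ± 1.28), CNTNAP2 298 and 156 (13.9 ± 6.13) and CNTNAP5 117 and 53 (7.47 ± 3.98). Both Caspr genes were lower in replicate 2, also in CPM: CNTNAP2 had 71.7 and 45.5 CPM and CNTNAP5 28.2 and 15.5 CPM. CNTN5 had no count in either library, which over both allows up to 0.396 CPM (3 counts). All 11 paralogs of the IgLON, CADM and contactin genes were detected, beside 59.4% of all protein-coding genes. The lowest in CPM, CADM3, had only 14 and 11 counts. CNTN2 had more counts on the opposite strand (37 and 27) than on its own (27 and 19). They were led by CNTN1 (152 ± 20.7 counts per kb), CADM1 (115 ± 21.1), CNTNAP1 (24.6 ± 6.5) and CADM4 (7.31 ± 0.94). Among neurexins, neuroligins and their LRRTM partners 8 of 10 were detected, among them LRRTM4 (36.1 ± 2.47), NLGN2 (18.1 ± 8.78) and NLGN4X (16.5 ± 2.00). LRRTM1 had 11 and 7 counts and LRRTM3 none.

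Teneurins are transmembrane proteins that bind latrophilins across the synapse. TENM3 (chr4:182143987-182803024, plus strand) had 618 and 468 counts (45.2 ± 8.83 counts per kb), while TENM2 had 7 and 8 (0.352 ± 0.0332). Of 8 other teneurins, latrophilins and FLRT proteins 5 were detected, with ADGRL2 (129 ± 23.1 counts per kb), TENM4 (125 ± 21.5), ADGRL1 (24.3 ± 9.17) and ADGRL3 (13.9 ± 2.32) on top. TENM1 had 2 and 2 counts, FLRT1 2 and 0 and FLRT2 0 and 1. Of the teneurins TENM3 and TENM4 were therefore detected, and TENM1 and TENM2 stayed under a mean count of 10.

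CSMD proteins carry complement control domains, and LRP1B is a large endocytic receptor of the LDL receptor family. LRP1B had 602 and 632 counts, the only one of the 10 highest genes with more raw counts in the shallower replicate 2, and 37.7 ± 1.30 counts per kb. CSMD2 had 78 and 46 counts (3.42 ± 1.25 counts per kb). CSMD1 and CSMD3 had no count in either library.

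Of the guidance receptor DCC and the receptor phosphatases PTPRD and PTPRT, only PTPRD was detected. PTPRD, which organises synapses from the presynaptic side, had 67 and 57 counts (5.41 ± 0.617 counts per kb), PTPRT 6 and 3, and DCC, a netrin receptor, none on its own strand. Other genes of the netrin pathway had RNA, 8 of 10 being detected. They were led by the repulsive netrin receptors UNC5C (286 ± 48.7 counts per kb) and UNC5B (165 ± 39.4) and by the DCC paralog NEO1 (70.1 ± 7.30), followed by UNC5A (13.6 ± 4.10). The ligand NTN1 had 1 and 0 counts and DSCAM 1 and 1. Of 7 other receptor phosphatases 5 were detected, with PTPRS (59.4 ± 23.0), PTPRU (32.6 ± 6.35), PTPRM (29.3 ± 10.7) and PTPRF (19.7 ± 4.95) above the long PTPRD. PTPRK and PTPRZ1 had no count.

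Neuregulins are ligands of the ERBB receptors, and NRG1, NRG3 and ERBB4 were all detected, NRG1 above and the others below the median of protein-coding genes per kb. NRG1 had 187 and 183 counts (8.66 ± 0.132 counts per kb), NRG3 28 and 22 (4.82 ± 0.817) and ERBB4 34 and 32 (2.54 ± 0.109). Of 9 other receptors and ligands of the family 4 were detected, NRG2 (10.1 ± 2.92), ERBB2 (8.77 ± 0.0685), EGFR (6.81 ± 0.665) and HBEGF (6.69 ± 2.37). ERBB3, also a marker of Schwann cells, had 2 and 0 counts, NRG4 had 1 and 1, EREG had 1 and 0, and BTC and AREG had none. No gene of this family reached the level of NRXN3 or the genes above it.

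Of the scaffolds and adaptors MAGI2 and DLG2 were detected. MAGI2 had 523 and 392 counts (13.4 ± 2.72 counts per kb), DLG2, a scaffold of the postsynaptic density, 77 and 73 (2.66 ± 0.10), and DAB1, the adaptor of the reelin receptors, 4 and 7. A list of 9 genes held the paralogs of MAGI2 and DLG2, the alpha catenin CTNNA1 given below, and CTNNB1, CTNND1 and CTNND2. These last catenins are not alpha catenins, and 8 of the 9 genes were detected. The listed paralogs of MAGI2 and of DLG2 were each higher per kb than MAGI2 and DLG2. MAGI3 had 146 ± 24.4 counts per kb, the catenin CTNNB1 had 110 ± 13.8, MAGI1 had 81.7 ± 8.68 and DLG1 had 62.1 ± 3.93, while CTNND2 had no count. In the reelin pathway 6 of 8 genes were detected, led by LRP1 (47.9 ± 9.73), the reelin receptor LRP8 (33.5 ± 1.87), CRKL (27.3 ± 5.56) and the reelin receptor VLDLR (22.8 ± 4.37). LRP2 had 0 and 1 counts and DAB2 none, so that the receptors had RNA and both DAB adaptors did not reach a mean count of 10.

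Of the alpha catenins, which tie cadherins to actin, CTNNA2 was high and CTNNA3 nearly without RNA. CTNNA2, the neural form (chr2:79185231-80648861, plus strand), had 636 and 440 counts, or 153 and 129 CPM, and 71.4 ± 18.4 counts per kb. CTNNA3 had 1 and 4 counts, and the broadly used paralog CTNNA1 had 46.8 ± 5.05 counts per kb. DMD, which encodes dystrophin, had 135 and 79 counts, but with 55.0 kb of annotated exon it was the lowest of the detected genes per length (1.94 ± 0.720 counts per kb). Of 10 other genes of the dystrophin complex 7 were detected, with DTNB (30.4 ± 11.5), the dystrophin paralog UTRN (29.6 ± 0.471), DTNA (22.6 ± 2.64) and SGCB (21.2 ± 0.162) on top. SNTB1 had 4 and 3 counts and SGCD 5 and 11.

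In the order by counts per kb, 13 of the 22 pairs of neighbouring detected genes were separated, in that the lower of the 2 libraries of the higher gene, in CPM per kb, lay above the higher library of the other gene. The 9 pairs that were not separated were LSAMP and CTNNA2, NRXN3 and CNTNAP2, CNTNAP2 and WWOX, WWOX and MAGI2, NRG1 and CNTNAP5, CNTNAP5 and MACROD2, MACROD2 and NEGR1, CSMD2 and DLG2, and DLG2 and ERBB4. The order depends on which exons count as the length of a gene. The same counts over the length of the canonical transcript alone gave 230 counts per kb for IMMP2L, 179 for AUTS2, 137 for CTNNA2 and 105.5 for WWOX, whose annotated exons shrink from 17.1 to 2.24 kb. DMD rose from 1.94 to 7.65 counts per kb and NRG1 from 8.66 to 15.4, and for LRP1B the value hardly moved (37.7 and 38.9).

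The 34 genes are among the longest of the genome, and within them a longer span went with no more RNA. Their span ran from 651845 to 2473539 bp with a median of 1.25 Mb, 27 spanned at least 1 Mb, and 21 were among the 50 longest protein-coding genes. Exons made up a median of 0.911% of the span, against 16.8% for protein-coding genes. Over the 34 genes the Spearman correlation of span with counts per kb was -0.18 (Pearson r of the logs -0.17), and over the 23 detected genes it was -0.14. For the 284 other long genes it was 0.00, and for all protein-coding genes 0.25. Exon length and mean count had a correlation of 0.05 over the 34 genes and 0.55 over protein-coding genes. These correlations are across genes that share the same 2 libraries, and are given without a test. Of the 27 genes of at least 1 Mb 17 were detected, beside 27 of the 43 other protein-coding genes of that span (62.8%). Of the 7 shorter genes 6 were detected, all but NTM. Of the 7 genes of at least 2 Mb (CNTNAP2, PTPRD, DMD, DLG2, MACROD2, CSMD1 and RBFOX1) 5 were detected, and none of the 7 exceeded the 13.9 counts per kb of CNTNAP2. The 5 highest of the other long genes were above any of the 34: the receptor kinase ALK (791 ± 243 counts per kb), EXOC4, the guidance ligand SLIT3 (377 ± 58.2), RBMS3 (306 ± 28.2) and FGF14 (260 ± 22.5).

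**Figure D2:**
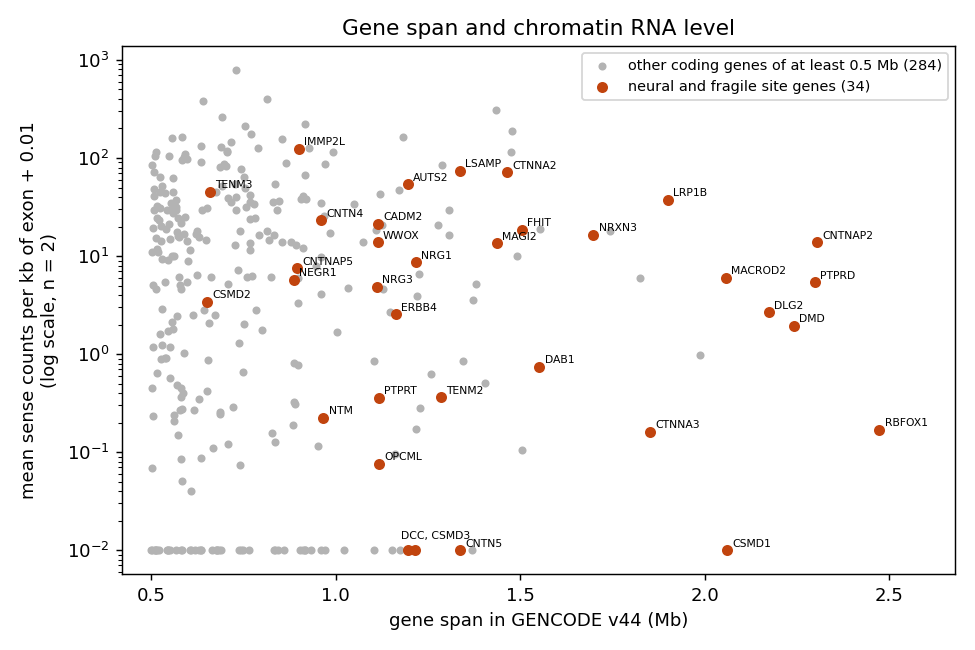
Gene span in Mb against the mean sense counts per kb of exon of the 2 libraries, with 0.01 added and on a log scale, for the 34 genes (labelled) and the 284 other protein-coding genes of at least 500 kb (grey). The 34 genes extend farther to the right, and the 7 of at least 2 Mb lie at or under 13.9 counts per kb, while the highest grey point is ALK at 791.

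Almost all RNA over the exons of the 34 genes came from their own strand. The opposite strand held 333 of 13988 counts, or 2.38% (95% exact binomial interval 2.13 to 2.65), beside 6.69% for protein-coding genes and 5.96% for the other long genes, and 15 of the 34 had no opposite count. Of the 25 genes with at least 20 counts over both strands, 2 had more counts on the opposite strand (10.7% of protein-coding genes with as many counts did). PTPRT was one of them, with 12 and 5 opposite against 6 and 3 sense counts. The other was NEGR1, with 91 and 108 opposite against 80 and 72 sense counts. NEGR1 shares 985 exon bases with ZRANB2-DT, a lncRNA of the other strand with 182 and 159 counts of its own. Without NEGR1 the opposite share of the other genes was 0.983%. DLG2 had 25 and 17 opposite counts, and its overlapping lncRNA DLG2-AS2 had 1 and 0. ERBB4 had 4 and 7, and DCC, without a sense count, had 2 and 4, while the lncRNA LINC01917 that overlaps its exons had 1 and 0. The remaining overlaps touched the unstranded count more than the sense count. MAGI2 shares 268 exon bases with MAGI2-AS3, which had 854 and 846 counts, TENM3 shares 115 bases with TENM3-AS1 (50 and 27 counts), NRG3 shares 78 bases with NRG3-AS1 (0 and 1), and for 6 of the 34 genes the unstranded count was below the sense count. Without strand, a read pair over exons of both genes is given to neither, and 5 of the 6 genes share exon bases with a gene of the other strand, while LRP1B shares none.

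Introns were looked at through the non-coding genes that are annotated inside them. The exons of such a gene form a window in which reads on the strand of the long gene can be counted apart from its own exons. In 33 of the 34 genes (all but AUTS2) there were 225 such windows with 168.6 kb in all. They held 8777 counts on the strand of the long gene and 15 on the other strand. The 90 windows of nested genes on the same strand had 1753 counts (14.2 ± 0.839 counts per kb, and 14.1 with the nested genes that touch an exon of the long gene) and none on the other strand. RNA of the nested gene itself cannot be told apart from RNA of the long gene there. The 135 windows of nested genes on the opposite strand had 7024 counts on the strand of the long gene and 15 on that of the nested gene. The non-coding genes nested against these long genes were thus nearly without RNA on their own strand, and the RNA over their exons lay on the strand of the long gene. Windows in detected genes had 41.3 ± 3.04 counts per kb, and windows in the 11 genes under a mean count of 10 had 0.460 ± 0.0448, with no count at all in the windows of CSMD1, CSMD3, CNTN5, DCC and PTPRT. In 3 of the long genes a nested protein-coding gene of the opposite strand had counts on its own strand. LRRN3 inside IMMP2L had 856 and 774 counts on its own strand and 450 and 316 on that of IMMP2L. LRRTM1 inside CTNNA2 had 11 and 7 against 183 and 130, and FLRT3 inside MACROD2 had 33 and 29 against 40 and 25.

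**Figure D3:**
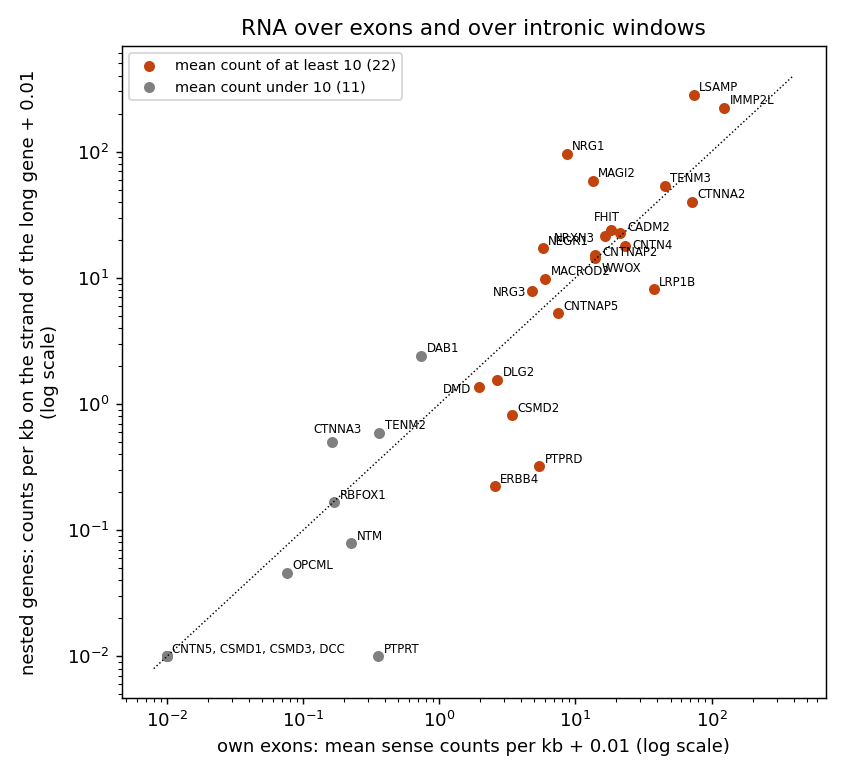
Mean sense counts per kb over the exons of each long gene against counts per kb on its strand over the exons of non-coding genes nested in its introns, both with 0.01 added and on log scales, for the 33 genes with a window. Points on the dotted line have equal values; with the union of exons as length NRG1, MAGI2 and LSAMP lie above it (MAGI2 would lie below it with the canonical length), PTPRD, ERBB4 and LRP1B below it, and 4 genes have no count on either axis.

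In the 20 detected genes with at least 1 kb of windows, RNA per kb of window had a median ratio of 1.08 to that over the union of exons, with a range from 0.0576 to 11.1. In 8 of the 20 the ratio was below 1. In 143 other long genes measured the same way the median ratio was 0.591, and 72.0% were below 1. These ratios depend on the exon length used. Over the length of the canonical transcript the median ratio was 0.590, with 14 of the 20 below 1, and 0.326 for the other long genes, with 86.7% below 1. With windows of at least 500 bp alone the medians were 1.03 in 17 genes and 0.529 in 115. All of these ratios pool windows of both strands, and RNA of nested genes on the same strand cannot be told apart in them. Windows of the opposite strand alone gave FHIT a ratio of 0.518 in place of 1.31, and CNTNAP2 0.71 in place of 1.10. They gave CADM2 1.37 in place of 1.06 and LSAMP 4.36 in place of 3.81, all with the union of exons, so that genes moved both ways. A read pair that touches an exon or window with any base is counted, which can raise counts per kb where these are short. Its part in these ratios was not tested. WWOX had the most windows, 19, each with a count, and together they had 14.4 ± 0.0554 counts per kb against 13.8 over its exons, but 105.5 over the canonical length, a ratio of 1.05 or 0.137. CADM2 (22.6 against 21.4) and NRXN3 (21.3 against 16.4) had ratios of 1.06 and 1.30 with the union and of 1.00 and 1.01 with the canonical length, and CNTNAP2 (15.3 against 13.9) had 1.10 with the union and 0.635 with the canonical length. PTPRD (0.312 against 5.41), ERBB4 (0.212 against 2.54) and LRP1B (8.11 against 37.7) had far less RNA in their windows than over their exons with either length. LSAMP (283 against 74.2) and NRG1 (95.7 against 8.66) had more with either length, with ratios of 3.81 and 11.1 for the union and 3.50 and 6.20 for the canonical length. MAGI2 (58.4 against 13.4) had more with the union (4.34) and less with the canonical length (0.890).

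The windows of LSAMP held 2312 of the 4613 window counts of replicate 1 and 2111 of the 4164 of replicate 2. TUSC7, a lncRNA annotated antisense to LSAMP (chr3:116709235-116723581), had 1644 and 1459 counts on the strand of LSAMP and 0 and 0 on its own, or 467 counts per kb. LINC00901 had 257 and 262 on the strand of LSAMP and 1 and 0 on its own, and LSAMP-AS1 had 149 and 131 and none. The canonical start of LSAMP lies 694 kb into the annotated gene, at chr3:116445487. The 10 windows before it had 294 ± 18.2 counts per kb and the 2 windows after it 192 ± 18.5, so that RNA on the strand of LSAMP was present well before its canonical start. TUSC7 held 1644 of the 2139 counts before the start in replicate 1 and 1459 of the 1960 in replicate 2. The level before the start therefore rests mostly on TUSC7, and no order between the 2 sides is drawn. In NRG1 all 4 windows lie before the canonical start, and most of their counts were in NRG1-IT1, a lncRNA of the same strand with 220 and 241 counts (134 counts per kb). CTNNA2 had no window wholly before its canonical start, and CTNNA2-AS1, which spans that start, had no count on the strand of CTNNA2. In TENM3 the 2 windows before the canonical start (0.372 kb) had 43 and 25 counts, or 91.4 ± 34.2 counts per kb. The 3 windows after it (0.874 kb) had 32 and 34 counts, or 37.8 ± 1.62 counts per kb. In IMMP2L a processed pseudogene 151 kb from the start (ENSG00000227948, chr7:111411319-111411883) had 189 and 139 counts on the strand of IMMP2L and none on its own.

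Windows were also compared between the parts of a gene before and after its midpoint, in the 7 detected genes with at least 1 kb of windows in each part, placing each window by its middle. RNA was higher before the midpoint in both libraries in 2 of them. MAGI2 had 106 ± 11.2 counts per kb before and 12.8 ± 0.772 after it, a ratio of 8.29, and WWOX had 17.6 ± 2.10 and 12.4 ± 1.28. It was lower before the midpoint in both libraries in CTNNA2 (17.9 ± 0.182 and 112 ± 7.11) and NRXN3 (8.18 ± 0.681 and 37.1 ± 4.37). In CTNNA2 the size of this difference depends on CTNNA2-AS1, which had no count and makes up 2068 bp of the 3.891 kb before the midpoint. The other CTNNA2 windows before the midpoint had 14.7 to 60.6 counts per kb, and the 2 windows after it had 60.0 and 188. CNTNAP2 changed order between libraries. DLG2 (8 and 9 counts before, 4 and 4 after the midpoint) and CSMD2 (2 and 2, 0 and 3) had too few counts to be compared. MAGI2 and WWOX on the one hand and CTNNA2 and NRXN3 on the other thus had opposite orders.

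**Figure D4:**
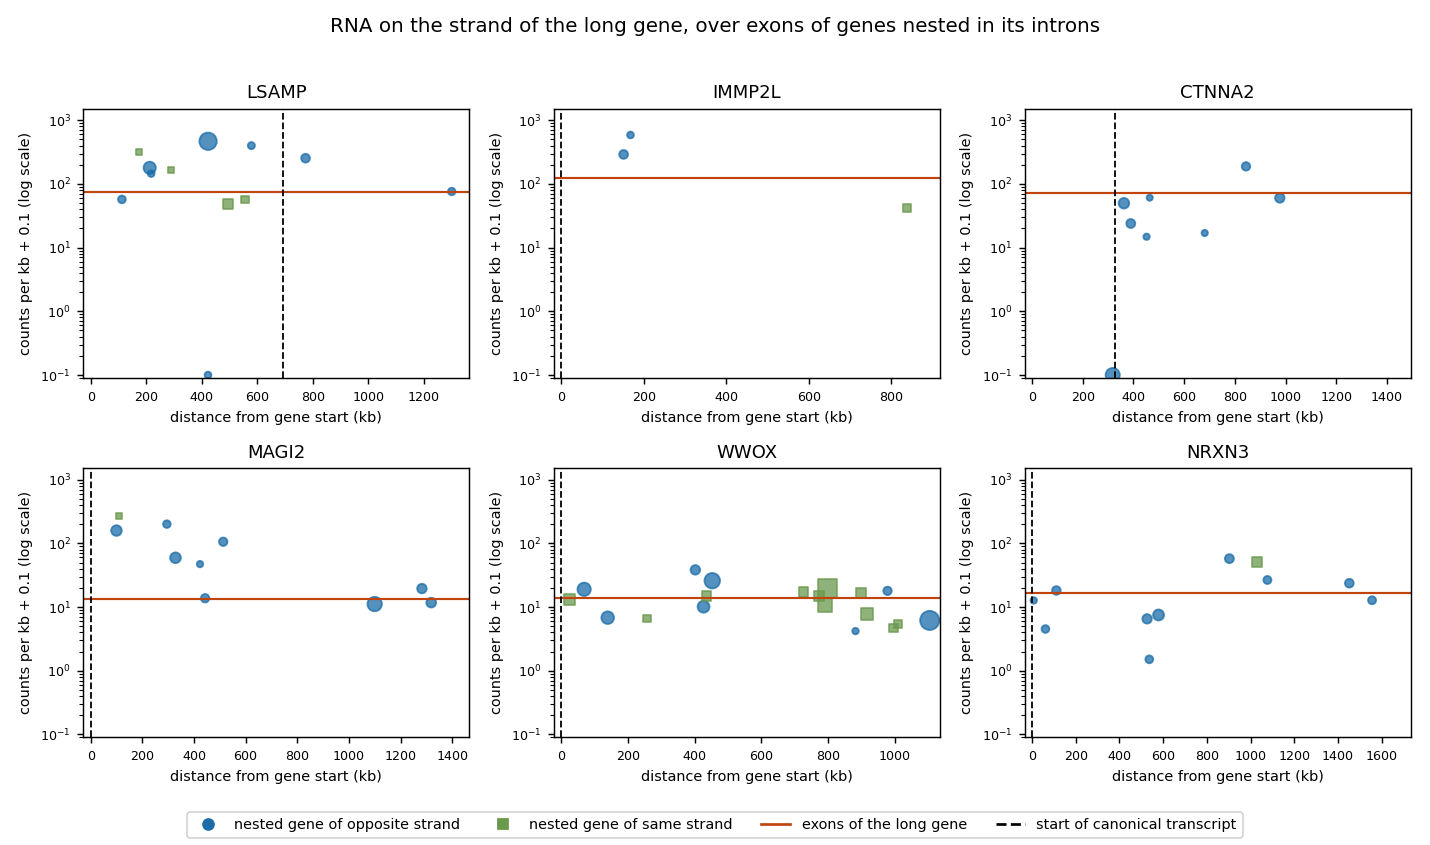
Counts per kb on the strand of the long gene over the exons of nested non-coding genes (0.1 added, log scale) against distance from the annotated gene start in kb, for 6 genes, with circles for nested genes of the opposite strand, squares for those of the same strand and area by exon length. The line across is the level over the exons of the long gene and the dashed line its canonical start; LSAMP has RNA on both sides of that line, the window of CTNNA2 that spans it has none, and in MAGI2 the 3 windows past 1000 kb lie near the exon level and most earlier ones above it.

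Promoter sequence is shown for the detected and undetected ends of the order. RefSeq promoters (GRCh38.p14, 250 bases before to 50 after a start, 300 bases) matched 28 of the 34 genes. The dinucleotide CG, which is dense in CpG islands, was counted in them, and the pair of genes with the most RNA per kb and the pair without a count are printed in gene direction, each CG in capitals. The entries are IMMP2L (chr7:111562443-111562742, minus strand), LSAMP (chr3:116445438-116445737, minus strand), CNTN5 (chr11:99020699-99020998, plus strand) and DCC (chr18:52339947-52340246, plus strand).
IMMP2L: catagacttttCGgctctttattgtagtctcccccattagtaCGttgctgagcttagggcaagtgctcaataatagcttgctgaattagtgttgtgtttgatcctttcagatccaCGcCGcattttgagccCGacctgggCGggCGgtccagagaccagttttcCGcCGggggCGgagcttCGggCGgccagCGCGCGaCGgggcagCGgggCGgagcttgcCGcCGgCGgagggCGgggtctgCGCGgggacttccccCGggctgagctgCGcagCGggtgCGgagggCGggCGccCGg
LSAMP: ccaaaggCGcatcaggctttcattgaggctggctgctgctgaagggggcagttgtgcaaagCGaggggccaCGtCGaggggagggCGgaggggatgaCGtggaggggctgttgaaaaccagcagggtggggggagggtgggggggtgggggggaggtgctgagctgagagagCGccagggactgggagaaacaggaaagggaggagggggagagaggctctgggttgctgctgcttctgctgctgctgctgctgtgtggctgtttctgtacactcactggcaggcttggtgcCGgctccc
CNTN5: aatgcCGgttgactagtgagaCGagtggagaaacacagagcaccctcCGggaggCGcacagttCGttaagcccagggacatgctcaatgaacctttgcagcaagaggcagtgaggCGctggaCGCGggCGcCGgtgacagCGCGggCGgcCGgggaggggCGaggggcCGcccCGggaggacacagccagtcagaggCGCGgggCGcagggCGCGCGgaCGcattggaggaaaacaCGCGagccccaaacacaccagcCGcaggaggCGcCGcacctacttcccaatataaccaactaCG
DCC: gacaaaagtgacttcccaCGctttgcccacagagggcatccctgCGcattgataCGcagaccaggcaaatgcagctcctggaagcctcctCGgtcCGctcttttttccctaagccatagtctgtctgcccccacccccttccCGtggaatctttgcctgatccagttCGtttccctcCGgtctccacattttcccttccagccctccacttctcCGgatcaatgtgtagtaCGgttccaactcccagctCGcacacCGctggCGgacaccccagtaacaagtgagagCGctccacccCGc

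IMMP2L held 31 CG in 300 bases at 65.0% GC, and LSAMP only 8 at about the same GC (64.7%). CNTN5, without a count, held 30 CG at 66.0% GC, close to IMMP2L, and DCC, also without a count, 15 at 58.0%. At least 1 CG occurs in 98.2% of the promoters of protein-coding genes. The observed over expected CG ratio was 1.0 for IMMP2L, 0.311 for LSAMP, 0.928 for CNTN5 and 0.663 for DCC. A ratio of at least 0.6 was found for 18 of the 28 genes (64.3%), beside 69.2% of 15225 protein-coding genes and 67.4% of 236 other long genes. Among the 19 detected genes with an entry it was found for 13 (68.4%) and among the 9 under a mean count of 10 for 5 (55.6%), a smaller gap than over protein-coding genes, where it was 88.2% and 37.0%. With 9 genes that comparison is a description only. The windows of LSAMP and NRG1 with most RNA lie before the canonical start, and the LSAMP promoter printed is that of the canonical transcript.

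The libraries gave similar levels for most of the 23 detected genes. The log2 ratio of replicate 2 to replicate 1 in CPM had a median of 0.02 and an SD of 0.32, beside 0.35 for detected protein-coding genes, and 13 of the 23 were higher in replicate 2. For 7 of the 23 the 95% exact binomial interval of the gene's own replicate 2 share did not hold 45.2%, the replicate 2 share of all counts. The same was true of 20.5% of detected protein-coding genes. The 7 genes were CNTNAP5 (31.2% of its counts in replicate 2), CNTNAP2 (34.4%), DMD (36.9%), CTNNA2 (40.9%) and AUTS2 (42.4%), which were lower in replicate 2, and LRP1B (51.2%) and LSAMP (48.1%), which were higher. The lowest log2 ratio was -0.86 for CNTNAP5 and the highest 0.35 for LRP1B.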

How the data were processed

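Chromatin RNA of 2 replicates of SH-SY5Y cells was analysed. The authors moved molecular identifiers to read names with UMI-tools, trimmed reads, removed spike-in and rRNA reads with Bowtie, mapped with STAR, removed duplicates and mapped again. Read pairs per gene were deposited as raw counts, without normalization, unstranded and for each strand. The build was hg38 per the submitters' processing notes, while the gene annotation used and the STAR options were not stated (not given in the sources used here). Lines that name no gene made up 82.4% and 83.4% of each file and were left out of all totals. They hold read pairs without a feature, ambiguous, mapping to several places or, where listed, unmapped. Exonic reads shared with near-identical copies are therefore missing, and read pairs in introns with no other annotated gene are among the 79.4% and 80.7% without a feature. These last shares are of read pairs without a feature, ambiguous or counted in a gene, and leave out pairs that map to several places or are unmapped.

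Genes were matched without version numbers to GENCODE version 44, which gave names, strands, spans and exon lengths, and 56558 of 60554 matched. The 3996 others held 0.394% of the counts. Exon lengths may differ from those of the annotation behind the counts. Column 4 is the strand of the gene and column 3 the opposite one. CPM is per 1000000 counts in genes of column 4, and counts per kb use the union of exons. A gene with a mean count of at least 10 was called detected. Intervals are exact (95%), 3 counts over both libraries served as a floor beside a count of 0, and both cover counting error only. The depth of 4155210 and 3425309 counts sets the precision.

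Members and lists were chosen with earlier results of these data known. Named were all 34 genes, of each partner list the 4 highest per kb and those under a mean count of 10, of the nested and of the antisense genes the 5 with the most counts, the 5 highest other genes of at least 500 kb, and the highest marker of each list. Some genes that this rule takes are left out of the text. The other genes named (LSAMP-AS1, the nested genes CTNNA2-AS1, LRRTM1 and FLRT3, and SOX10) were added after their values were seen, and so were the window ratios and the splits of windows at the canonical start and at the midpoint. Proteins were not used here. With 1 condition no count model was fitted. Alternatives were the other count columns, each replicate alone, other detection limits, genes without a count left out, canonical exon length and filters on nested genes. The functions for levels and for counting intervals were tested on simulated data. The steps for exon overlaps, windows, order of neighbours and promoters were not tested in this way. Python 3.11.15, numpy 2.4.6, pandas 2.3.3, scipy 1.17.1 and matplotlib 3.10.9 were used.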

Additional observations from a re-analysis of the deposited data

Results flagged for a closer look

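The strand opposite to a gene was not used for its level, and for 10 of the 34 genes it held more than the floor of 3 counts over both libraries. Its mean count over both libraries was 99.5 at NEGR1, 21 at DLG2, 8.5 at PTPRT, 5.5 at ERBB4, 5 at TENM3, 4.5 at MAGI2, 3.5 each at TENM2, NRG1 and AUTS2, and 3 at DCC, which had no sense count. NEGR1, DLG2, TENM3, MAGI2 and DCC share exon bases with an annotated gene of the other strand, and PTPRT, ERBB4, TENM2, NRG1 and AUTS2 share none. With 2 replicates no library could be set apart from its group.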

How the results depend on the processing

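Of 52 alternatives to the values over the 34 genes, 29 left the value within the spread between the libraries, or the count within 1.5 times, and 23 moved it. The opposite strand gave 2 detected genes in place of 23, a median of 0.924 CPM in place of 20.03 and of 0.0443 counts per kb in place of 5.58, a correlation with span of -0.257 in place of -0.18 and of exon length with counts of 0.416 in place of 0.0537, and no counts (0) in place of 14.1 per kb in nested genes of the same strand. A limit of 100 counts left 15 genes. The unstranded counts gave a median of 22.7 CPM. Without the genes at 0 the medians were 24.8 CPM and 6.73 counts per kb. Canonical exon length gave 7.61 counts per kb and correlations of -0.103 with span and -0.100 for exon length, whose sign thus depends on the annotation chosen. The correlation with span was -0.138 over detected genes and -0.0860 for mean counts. The opposite share of 2.38% fell to 0.598% without genes that overlap exons of the other strand, and the median share was 0.439%. Nested genes of the same strand had 22.9 counts per kb within detected genes. Chosen after seeing the data, nested genes of both strands gave 24.5 and those of at least 500 bp 12.7, and canonical exon length gave a median window to exon ratio of 0.590 in place of 1.08. Leaving out 1 replicate gave 23 detected genes each time, 19.0 to 20.7 CPM, 4.81 to 5.85 counts per kb, opposite shares of 2.22 to 2.58%, span correlations of -0.195 to -0.150, exon length correlations of 0.0428 to 0.0635 13.5 to 14.7 counts per kb in nested genes and window ratios of 1.021 to 1.224. The lower counts per kb of exon without replicate 1 come from the smaller depth of replicate 2, and the cause of the other moves was not tested. No paired analysis was possible because a single group of 2 libraries leaves nothing to pair. Depth limits the 11 genes under a mean count of 10, whose order is not resolved, and 2 libraries give an SD of low precision.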
